A study of Danio rerio with 15 samples.

Results

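The fatty acid desaturases and elongases described here are 10 zebrafish genes: fads2, elovl2, elovl5, elovl4a, elovl4b, elovl1a, elovl1b, elovl6, scd and scdb. They were taken as the entries with exactly these symbols, 10 of 47048 in the count table, and all 10 were among the 23874 entries that passed the filter on low counts and were tested. One entry with a numbered suffix, elovl6_1, is given apart, since reads could be split between copies of a gene. The genes were chosen from results of these libraries in which embryos exposed to FBSA were set against the controls, so the levels and differences of these 10 genes in every comparison that uses the FBSA libraries are a description. Their calls there were bound up with the choice, so nothing is read from their number or from which genes kept or lost a call.

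Messenger RNA was sequenced from whole embryos of the wild-type Tropical 5D zebrafish line, a laboratory strain. Embryos without their chorion were exposed from 8 to 48 hours post fertilization to 47 uM of FBSA, PFBS, PFPeA or 42FTS, and the Control embryos to 0 uM, all in 0.5% methanol as the carrier. Each group had 3 libraries, each from 10 pooled embryos. Separate clutches for the pools are not stated, so tests measure the spread between these pools, which may be technical. The 4 compounds carry the same perfluorobutyl chain. FBSA (perfluorobutane sulfonamide) and PFBS (perfluorobutane sulfonic acid) differ in the head group, PFPeA has a carboxylic acid in its place, and 42FTS has a sulfonic acid set off from the chain by an ethyl spacer. These genes were compared to see whether the response of fatty acid remodelling transcripts varies with the head group.

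Desaturases place double bonds in fatty acids, and elongases of the Elovl family carry out the first and rate-limiting step of each round of chain lengthening in the endoplasmic reticulum. Desaturation by Fads2 and elongation by Elovl5 and Elovl2 turn dietary or yolk precursors into arachidonic, eicosapentaenoic and docosahexaenoic acid, which the membranes of brain and retina take up in large amounts. Elovl4 enzymes make very long chains for retina, brain and skin, Elovl1 enzymes lengthen saturated and monounsaturated chains for sphingolipids, Elovl6 makes stearate from palmitate, and Scd enzymes make monounsaturated fatty acids. A zebrafish embryo at this age lives on its yolk lipids. In mammals the genes of Fads2, Elovl5, Elovl6 and Scd are targets of the sterol-regulated factor SREBP-1.

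Genes received 24249287 to 32686343 reads per library. Control 3 and 42FTS 2 had the lowest totals and 9.92% and 9.94% of reads not aligned, against 6.32% to 6.73% in the other 13 libraries. The number of genes called in FBSA against Control was 2274, and 1020 without FBSA 2. Levels below are library-scaled CPM, that is, counts relative to the library's total, scaled by the trimmed mean of M-values (TMM), and fold changes are log2 values of the first-named group over the second from 1 edgeR fit of all 15 libraries. A call means an adjusted p (Benjamini-Hochberg over all genes tested) under 0.05 in edgeR's quasi-likelihood test. In whole embryos, fewer cells of a type and less RNA per cell cannot be told apart. The genes' counts ranged from 31 for elovl2 to 2252 for elovl1b.

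FBSA embryos had lower levels of the polyunsaturated pathway genes fads2 and elovl2, of the very long chain elongase gene elovl4b and of the stearoyl-CoA desaturase gene scdb. They had higher levels of both elovl1 genes. The genes elovl5, elovl4a, elovl6 and scd had groups that overlapped. Of the 10 genes, 2 were called higher and 4 lower in FBSA against Control, where 9.53% of all genes tested were called (5.28% higher and 4.25% lower); the genes were proposed on that comparison, and nothing is read from the count. The calls of elovl4b (log2 -0.48 to -0.74) and scdb (-0.47 to -0.63) were lost without FBSA 2, without Control 2 or without Control 3, and that of elovl4b also without Control 1 (-0.62). In the fit of only these 2 groups, and without Control 3 and 42FTS 2, elovl1a, elovl4b and scdb lost their calls. The same 6 genes had FBSA and Control libraries that did not overlap, 2 of them higher and 4 lower, as 14.5% and 13.5% of all genes tested had. The median log2 difference of FBSA from Control over the 10 genes was -0.58, against 0.01 over all genes tested.

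**Figure D1:**
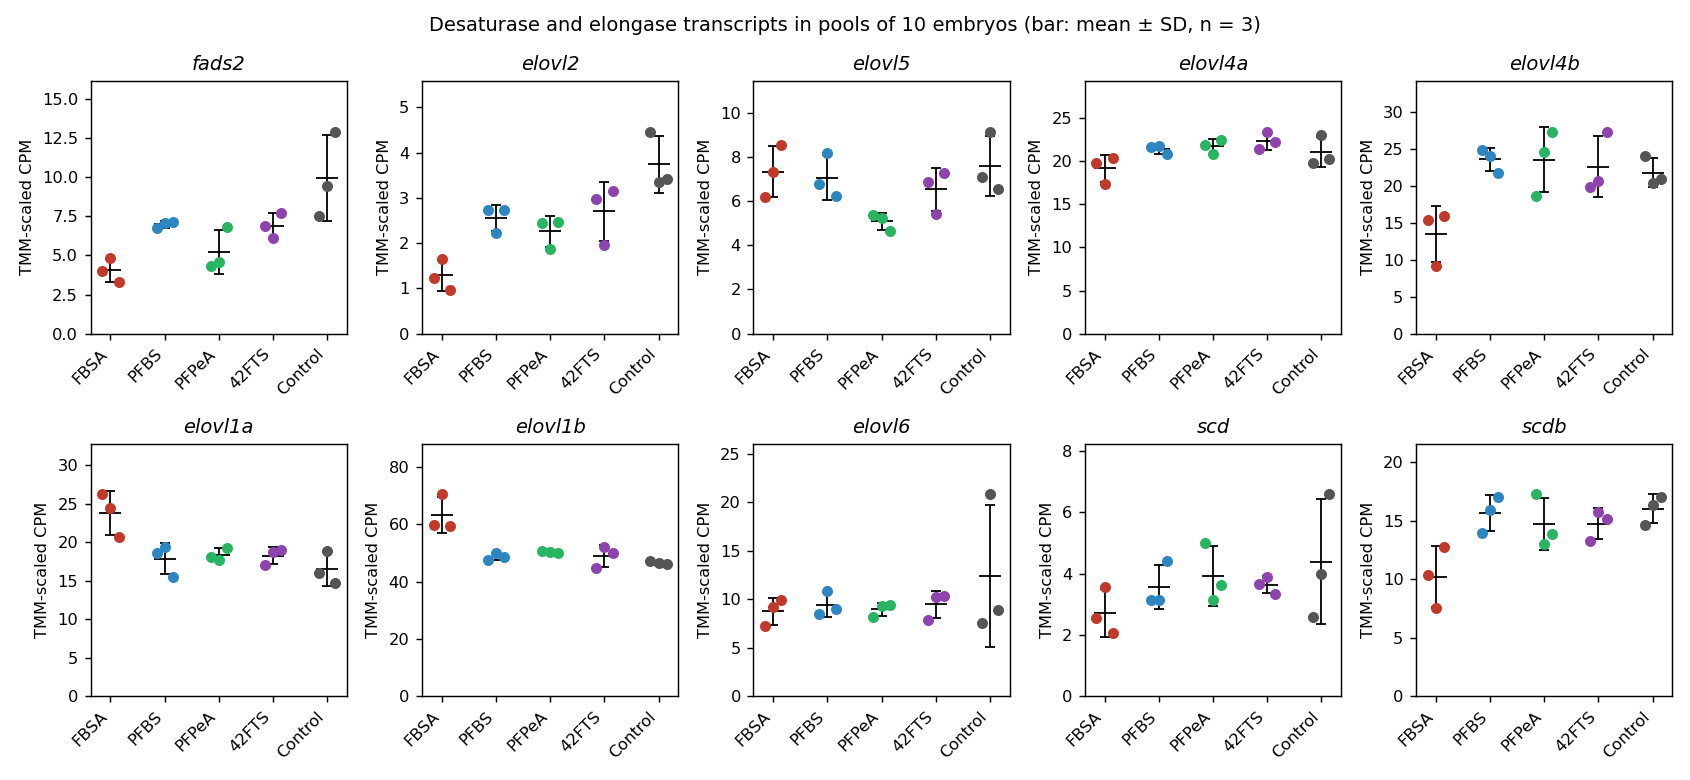
Scaled level (TMM-scaled CPM, vertical axes from 0) of each of the 10 genes in the 3 libraries of FBSA, PFBS, PFPeA, 42FTS and Control, with the mean and SD. The FBSA points lie below every Control point for fads2, elovl2, elovl4b and scdb and above every Control point for elovl1a and elovl1b, and 1 Control library of elovl6 stands apart at 20.8 CPM.

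The desaturase gene fads2 encodes the enzyme that inserts double bonds near the carboxyl end of polyunsaturated fatty acids. Its level was 4.00, 4.82 and 3.34 CPM in FBSA 1, 2 and 3, 6.76, 7.10 and 7.13 CPM in the PFBS libraries, 4.32, 4.55 and 6.85 CPM in PFPeA, 6.87, 6.14 and 7.71 CPM in 42FTS, and 7.50, 9.47 and 12.9 CPM in Control. All 3 FBSA, all 3 PFBS and all 3 PFPeA libraries lay below the lowest Control library, whereas 42FTS 3 exceeded it. Means ran from 4.05 ± 0.744 CPM in FBSA through 5.24 ± 1.40 in PFPeA, 6.91 ± 0.786 in 42FTS and 6.999 ± 0.210 in PFBS to 9.97 ± 2.75 in Control (SD, n = 3 each). Neighbours in this order overlapped, except PFBS and Control. FBSA differed from Control by -1.29 on the log2 scale (SE 0.21), a level 0.408 times that of Control.

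The Control libraries themselves spread widely for fads2, with a coefficient of variation of 27.6% in Control against 18.4% in FBSA. Control 3, 1 of the 2 libraries with fewer reads, had the highest fads2 level of all 15. Without Control 3 the log2 difference of FBSA from Control was -1.07. The differences of PFBS, PFPeA and 42FTS from Control without Control 3 were -0.28, -0.69 and -0.30.

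The elongase gene elovl2 acts after fads2, on the longer polyunsaturated chains that lead to docosahexaenoic acid. Its level was 1.24, 1.66 and 0.967 CPM in FBSA, 2.73, 2.23 and 2.73 CPM in PFBS, 2.44, 1.87 and 2.48 CPM in PFPeA, 2.98, 1.97 and 3.16 CPM in 42FTS, and 4.47, 3.35 and 3.41 CPM in Control. The 3 FBSA libraries were the lowest of the 15 and the 3 Control libraries the highest, with the 9 libraries of the acids between them. The log2 difference of FBSA from Control was -1.54 (SE 0.25), or 0.344 times the Control level, the largest of the 10 genes. It rested on 31 to 53 reads per FBSA library.

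The elongase gene elovl5 works on shorter polyunsaturated chains, between the desaturation steps. It had 6.19, 7.29 and 8.51 CPM in FBSA, 6.76, 8.17 and 6.21 CPM in PFBS, 5.38, 5.22 and 4.63 CPM in PFPeA, 6.87, 5.42 and 7.28 CPM in 42FTS, and 7.07, 9.14 and 6.54 CPM in Control. FBSA libraries lay within the Control range apart from FBSA 1, and PFPeA was the group with the lowest levels. FBSA differed from Control by a log2 of -0.05 (95% CI -0.42 to 0.32).

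The paralogs elovl4a and elovl4b encode elongases of very long chains, and in zebrafish the elovl4b enzyme makes very long polyunsaturated chains found in the retina. The level of elovl4b was 15.4, 9.11 and 15.9 CPM in FBSA, 24.9, 24.05 and 21.8 CPM in PFBS, 18.7, 24.6 and 27.3 CPM in PFPeA, 19.9, 20.6 and 27.3 CPM in 42FTS, and 24.05, 20.4 and 20.9 CPM in Control. FBSA libraries lay below all 12 others, with FBSA 2 the lowest, and the other 4 groups overlapped. The log2 difference of FBSA from Control was -0.69 (SE 0.20) for elovl4b; without FBSA 2 it was -0.48. The paralog elovl4a had 19.8, 17.4 and 20.3 CPM in FBSA and 19.8, 23.1 and 20.3 CPM in Control, which overlapped, with a log2 difference of -0.14 (95% CI -0.31 to 0.04). Across all 15 libraries elovl4a stayed between 17.4 and 23.4 CPM.

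The paralogs elovl1a and elovl1b, whose enzymes lengthen saturated and monounsaturated chains, were the members with higher levels in FBSA. The level of elovl1b was 59.7, 70.5 and 59.5 CPM in FBSA, 47.7, 50.0 and 48.5 CPM in PFBS, 50.8, 50.3 and 50.1 CPM in PFPeA, 44.6, 52.2 and 50.0 CPM in 42FTS, and 47.1, 46.4 and 46.0 CPM in Control. The 3 FBSA libraries were the highest of the 15, and the Control libraries differed from each other by a coefficient of variation of 1.22%. The level of elovl1a was 26.3, 24.5 and 20.7 CPM in FBSA, 18.7, 19.4 and 15.6 CPM in PFBS, 18.2, 17.7 and 19.3 CPM in PFPeA, 17.1, 18.7 and 19.1 CPM in 42FTS, and 16.0, 18.9 and 14.7 CPM in Control. For elovl1a too the FBSA libraries lay above the other 12. Log2 differences of FBSA from Control were 0.53 (SE 0.11) for elovl1a and 0.44 (SE 0.07) for elovl1b, or 1.44 and 1.36 times the Control level.

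Stearoyl-CoA desaturases make oleate and palmitoleate from saturated chains. The level of scdb was 10.4, 7.58 and 12.8 CPM in FBSA, 13.99, 15.9 and 17.1 CPM in PFBS, 17.3, 13.1 and 13.9 CPM in PFPeA, 13.2, 15.8 and 15.2 CPM in 42FTS, and 14.7, 16.4 and 17.1 CPM in Control. FBSA libraries were below all others, and the other groups overlapped. For scdb, FBSA differed from Control by a log2 of -0.65 (SE 0.16). The gene scd had 2.54, 3.57 and 2.06 CPM in FBSA, 3.14, 3.14 and 4.41 CPM in PFBS, 5.00, 3.13 and 3.63 CPM in PFPeA, 3.66, 3.89 and 3.35 CPM in 42FTS, and 2.60, 3.99 and 6.58 CPM in Control. FBSA and Control overlapped for scd, with a log2 difference of -0.68 (95% CI -1.33 to -0.04), and Control 3 was again the highest library; without it the difference was -0.28.

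The elongase gene elovl6, whose enzyme extends palmitate, had 7.21, 9.20 and 9.88 CPM in FBSA, 8.47, 10.9 and 8.99 CPM in PFBS, 8.22, 9.30 and 9.36 CPM in PFPeA, 7.82, 10.2 and 10.4 CPM in 42FTS, and 7.59, 20.8 and 8.87 CPM in Control. Control 2 alone stood apart, and the other 14 libraries lay between 7.21 and 10.9 CPM. The log2 difference from Control was -0.51 in FBSA, -0.40 in PFBS, -0.47 in PFPeA and -0.40 in 42FTS, and without Control 2 it was 0.10, 0.20, 0.12 and 0.21, so the sign of each rested on that library. The suffixed entry elovl6_1, with 7.41% of the reads of both entries, had 0.444, 0.470 and 0.436 CPM in FBSA and 0.795, 1.04 and 0.562 CPM in Control. Its FBSA libraries lay below those of Control on 14 to 34 reads per library. Its values are uncertain, because reads could align to both entries, and reads with no unique alignment were counted for no gene.

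PFBS, PFPeA and 42FTS, the 3 acids, were compared with Control by the test; these comparisons share the Control libraries with the one the genes were proposed on. None of the 10 genes was called in any of them, and neither was any other of the 23874 genes tested (0% called in each). At an unadjusted p under 0.05 in edgeR, 2 of the 10 genes were picked out in PFBS, 3 in PFPeA and 1 in 42FTS, where 3.87%, 5.21% and 4.07% of all genes tested were. With DESeq2 in place of edgeR, fads2 was called lower in PFPeA and none of the 10 in PFBS or 42FTS.

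PFPeA stood lowest of the acids for fads2, elovl2 and elovl5. The log2 difference of PFPeA from Control was -0.92 (SE 0.21) for fads2, -0.73 (SE 0.25) for elovl2 and -0.58 (SE 0.17) for elovl5. Adjusted p-values in edgeR were 0.925 for fads2 and 0.955 for elovl2 and elovl5, so none of the 3 genes passed the test in PFPeA. Each of the 3 had all PFPeA libraries below all Control libraries, a pattern that 4.89% of all genes tested showed in PFPeA. DESeq2 gave fads2 in PFPeA an adjusted p of 0.0490, and the edgeR alternatives gave 0.380 to 0.9997. The authors' deposited table had a log2 of -0.93 and a Q of 0.161 for fads2 in PFPeA.

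For fads2 and elovl2, the means of PFBS and 42FTS lay between those of FBSA and Control. The log2 difference of fads2 from Control was -0.51 (SE 0.21, adjusted p 0.9995 in edgeR) in PFBS and -0.52 (SE 0.21, adjusted p 0.997 in edgeR) in 42FTS. For elovl2 it was -0.55 (SE 0.24) in PFBS and -0.47 (SE 0.24) in 42FTS, with the same adjusted p-values of 0.9995 and 0.997 in edgeR. All PFBS libraries lay below all Control libraries for both genes, as 4.36% of all genes tested did, and in 42FTS this held for elovl2 alone, where 5.15% of genes did. For elovl1b, all PFBS libraries and all PFPeA libraries lay above those of Control (4.95% and 5.8% of genes), by log2 0.07 and 0.12, with adjusted p-values of 0.9995 and 0.977 in edgeR. For elovl4a, elovl4b, elovl1a and scdb every difference of an acid from Control was between -0.12 and 0.15 on the log2 scale.

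**Figure D2:**
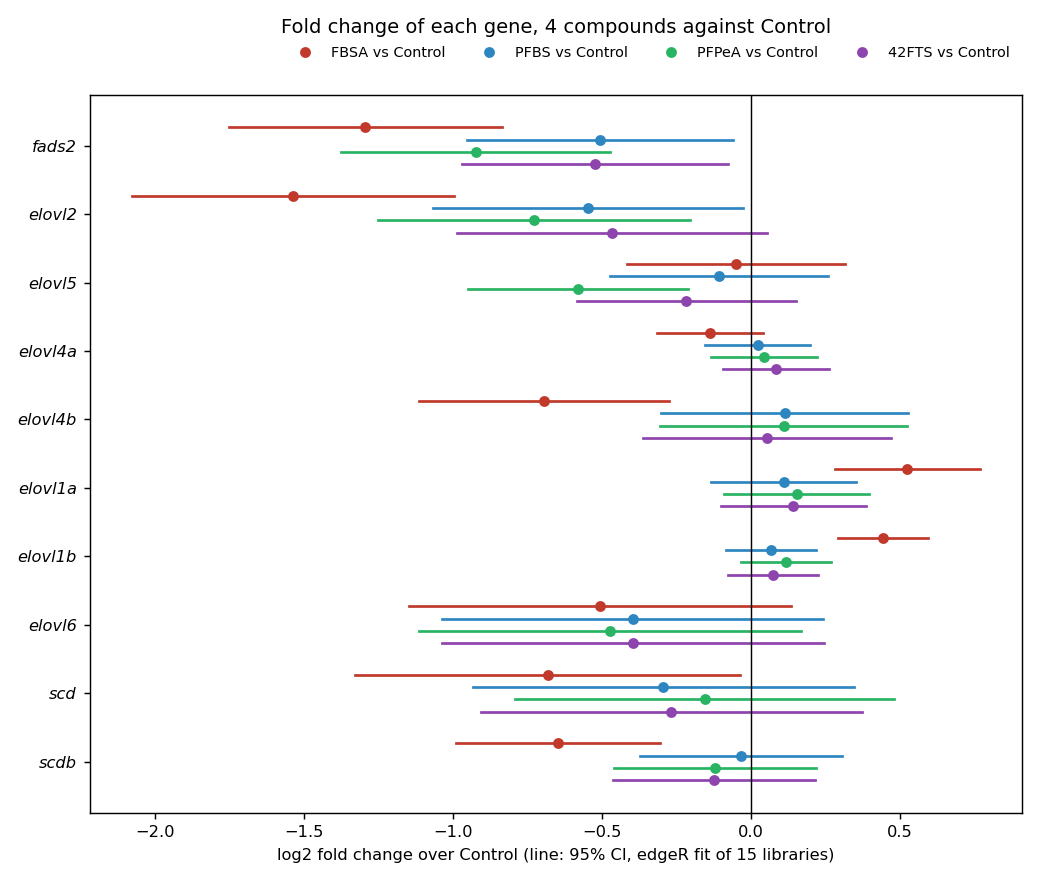
Log2 fold change over Control of each of the 10 genes (horizontal axis; lines are 95% confidence intervals of the edgeR fit of 15 libraries) for FBSA, PFBS, PFPeA and 42FTS, which share the 3 Control libraries. For fads2 and elovl2 all 4 compounds lie left of 0, with FBSA farthest at -1.29 and -1.54, while for elovl4b, elovl1a, elovl1b and scdb the acids lie within 0.16 of 0 and FBSA does not.

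The 3 acids were also compared with each other at their common dose and time, in 3 pairs for the 10 genes. No difference passed the test, with 0% of all genes tested called in each pair. At an unadjusted p under 0.05 in edgeR, 1 of the 10 genes was picked out in PFPeA against PFBS and none in 42FTS against PFBS or PFPeA against 42FTS, where 4.83%, 4.39% and 6.82% of all genes tested were; DESeq2 called none. The 1 gene was elovl5, with means of 5.07 ± 0.392 CPM in PFPeA and 7.05 ± 1.02 CPM in PFBS (SD, n = 3 each). The log2 difference for elovl5 was -0.47 (95% CI -0.84 to -0.10) with an adjusted p of 0.987 in edgeR. For fads2 the difference was -0.42 (95% CI -0.87 to 0.03) for the carboxylic acid PFPeA against the sulfonic acid PFBS, and -0.40 (95% CI -0.85 to 0.05) for PFPeA against 42FTS. The sulfonic acids 42FTS and PFBS, which differ by the ethyl spacer, had a fads2 difference of -0.02 (95% CI -0.47 to 0.43) and an elovl2 difference of 0.08 (95% CI -0.44 to 0.60). A p that misses the threshold does not show that the acids act alike.

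The sulfonamide FBSA and the sulfonic acid PFBS differ in the head group alone. The 10 genes were chosen on the FBSA libraries, so their values against the acids are a description, and nothing is read from the counts of calls or of groups without overlap. Against PFBS, FBSA libraries were lower for fads2 (log2 -0.79, SE 0.21), elovl2 (-0.99, SE 0.25), elovl4b (-0.81, SE 0.20) and scdb (-0.62, SE 0.16) and higher for elovl1a (0.42, SE 0.11) and elovl1b (0.38, SE 0.07). In each of these 6 genes, and in elovl4a, the FBSA and PFBS libraries did not overlap, 2 of them higher and 5 lower, as 14.6% and 13.7% of all genes tested did. Against PFBS, 2 of the 10 genes were called higher and 4 lower, where 10.1% of all genes tested were called, 5.17% higher and 4.98% lower. Against PFPeA, 1 was called higher and 1 lower, where 8.26% of all genes were called, 4.08% higher and 4.18% lower. Against 42FTS, 2 were called higher and 3 lower, where 9.8% of all genes were called, 5.69% higher and 4.11% lower. The 2 calls against PFPeA were elovl1b and elovl4b. In fits of only the 2 groups compared, 2 genes were called against PFBS and 0 against PFPeA or 42FTS. Against 42FTS, 1 was called without 42FTS 3. The fads2 libraries of FBSA and PFPeA overlapped, with a log2 difference of -0.37 (95% CI -0.83 to 0.09). The gene elovl5 was higher in all FBSA libraries than in all PFPeA libraries, by log2 0.53 (SE 0.17), as 13.4% of all genes tested were.

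The authors' deposited table lists 1909 genes with a Q for FBSA of at most 0.05, and the 6 genes with non-overlapping groups are among them while elovl5, elovl4a, elovl6 and scd are not. It gives TPM, a transcript level relative to length and to the library's total, which allows levels of different genes to be compared. Per length, elovl1b stood highest, with 40.8 ± 4.92 TPM in FBSA and 31.1 ± 0.615 TPM in Control (SD, n = 3 each). It was followed by elovl1a with 18.9 ± 2.15 TPM in FBSA and 13.8 ± 1.78 TPM in Control. The genes scdb and elovl4b had 8.09 ± 1.94 and 6.95 ± 1.84 TPM in FBSA, against 12.3 ± 0.573 and 11.9 ± 1.11 TPM in Control. The polyunsaturated pathway genes were the lowest, with fads2 at 3.09 ± 0.721 TPM in FBSA and 8.02 ± 2.19 TPM in Control, and elovl2 at 1.45 ± 0.145 TPM in FBSA and 4.47 ± 0.996 TPM in Control. On this scale elovl1b was the only one of the 6 above 25 TPM in every library.

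**Figure D3:**
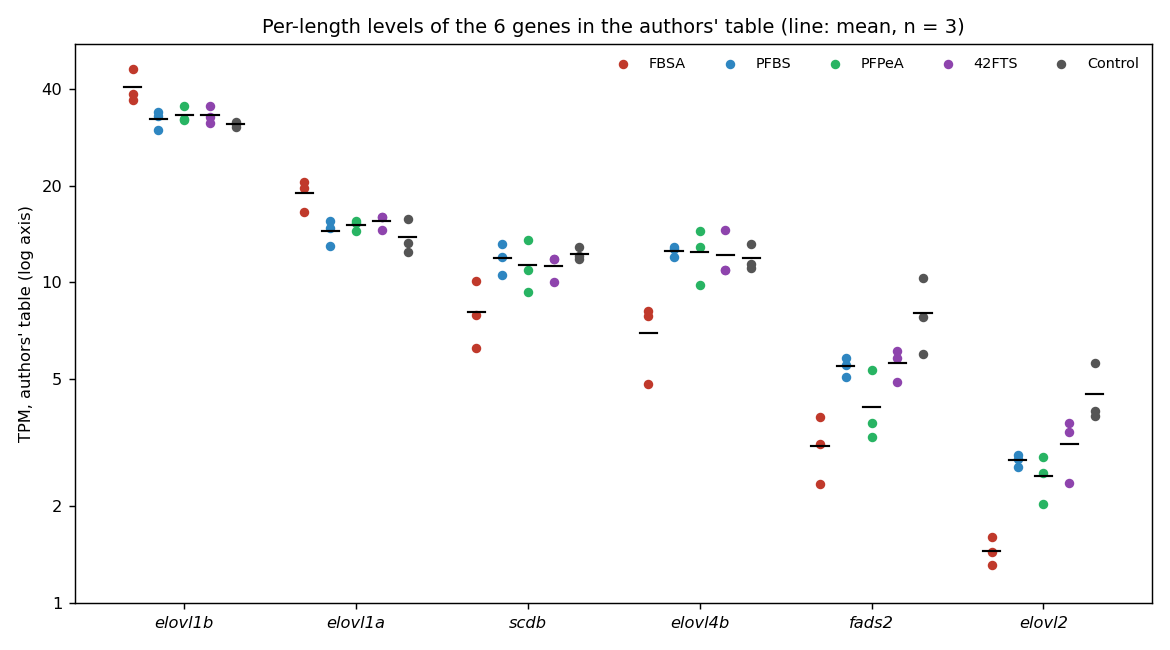
TPM (transcript level per length) from the authors' table (log axis) of the 6 genes it lists, for the 3 libraries of FBSA, PFBS, PFPeA, 42FTS and Control, with a line at each mean. Levels fall from elovl1b, at 40.8 TPM in FBSA and 31.1 TPM in Control, to elovl2, at 1.45 TPM in FBSA and 4.47 TPM in Control.

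Other genes of the pathway were taken from 5 lists, drawn up with earlier results of these data known. Values and p-values of these genes in FBSA are therefore a description, the more so for genes named by the size of their difference. The lists held 98 symbols, of which 90 were in the table and 84 were tested. In FBSA against Control 6 rose and 6 fell, where 5.28% of all genes tested rose and 4.25% fell, and their median log2 difference was -0.01, against 0.01 over all genes. In PFBS, PFPeA and 42FTS against Control edgeR called none. At an unadjusted p under 0.05 in edgeR were 6, 9 and 4 of the 84, against 3.87%, 5.21% and 4.07% of all genes tested. DESeq2 called 1 of the 84 in PFPeA, srebf2, named here after its value was seen. This gene of the sterol-regulated factor SREBP-2 had 186, 176 and 178 CPM in PFPeA and 208, 222 and 242 CPM in Control, a log2 difference of -0.32 (SE 0.07, adjusted p 0.774 in edgeR). Its level was 197, 187 and 212 CPM in PFBS, 199, 187 and 196 CPM in 42FTS, and 184, 214 and 199 CPM in FBSA. Control 3 was the highest library.

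Among other elongases and the partner enzymes of the elongation cycle, 3 of 19 tested rose in FBSA and 2 fell. The gene elovl7b, an elongase of the same family as elovl1, had 39.2, 48.05 and 49.1 CPM in FBSA and 22.9, 28.2 and 21.6 CPM in Control, a rise of log2 0.91 (SE 0.12, adjusted p 0.000408 in edgeR). The gene hsd17b12a encodes a reductase of the second step of the cycle and rose by 0.93 (SE 0.11, adjusted p 0.000172 in edgeR), with 72.1, 94.4 and 65.0 CPM in FBSA and 41.6, 39.7 and 40.5 CPM in Control. Its paralog hsd17b12b fell by 0.40 on the log2 scale (SE 0.08, adjusted p 0.00824 in edgeR), with 19.3, 19.4 and 21.5 CPM in FBSA and 26.5, 24.5 and 28.5 CPM in Control. For both paralogs the FBSA and Control libraries did not overlap. The dehydratase gene hacd1 fell by 0.42 (SE 0.08, adjusted p 0.00413 in edgeR), and the ceramide desaturase gene degs2 rose by 0.50 (SE 0.15, adjusted p 0.0412 in edgeR). The call of degs2 was lost under 6 of 13 alternatives, without FBSA 2 or without any Control library among them, and that of hsd17b12b in a fit of only these groups and without Control 3 and 42FTS 2.

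The fatty acid synthesis list held another pair of paralogs with opposite directions in FBSA. The gene mid1ip1a, whose product promotes the assembly of acetyl-CoA carboxylase, had 73.4, 86.0 and 72.3 CPM in FBSA and 37.2, 38.6 and 38.8 CPM in Control, a rise of log2 1.01 (SE 0.10, adjusted p 2.85e-05 in edgeR). The gene mid1ip1b had 26.6, 25.8 and 30.8 CPM in FBSA and 37.9, 40.3 and 41.5 CPM in Control, a fall of 0.52 (SE 0.08, adjusted p 0.000822 in edgeR). Both kept their call under all 13 alternatives, which their choice by the size of their difference favours. The other 10 of 12 genes tested in this list did not pass, fatty acid synthase (fasn) among them with 0.293 CPM in FBSA and 0.689 CPM in Control on average. The gene fasn is named outside the rule that named genes by the size of their difference. An entry with a numbered suffix held 72% of the reads of fasn. With it added, fasn was lower in FBSA by a log2 of -0.92 (adjusted p 0.0355 in edgeR), against adjusted p-values of 0.12 to 0.34 under the other 12 alternatives.

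Of 26 genes tested for activation, esterification and transport of fatty acids, 2 rose and 3 fell in FBSA. The acyl-CoA synthetase gene acsl2 rose by log2 0.60 (SE 0.13, adjusted p 0.00932 in edgeR) and the lysophospholipid acyltransferase gene lpcat4 by 0.59 (SE 0.16, adjusted p 0.0287 in edgeR). The gene gpam, for the mitochondrial acyltransferase that starts glycerolipid synthesis, fell by 0.52 (SE 0.09, adjusted p 0.00321 in edgeR). The acyl-CoA synthetase genes acsl6 and acsl4a fell by 0.46 each (SE 0.08 and 0.12, adjusted p 0.00326 and 0.0291 in edgeR). Calls of lpcat4 and acsl4a were lost under 7 and 6 of 13 alternatives. Of 16 regulators tested, srebf1, srebf2, nr1h3 and the PPAR genes included, edgeR and DESeq2 called 0, with 2 at an unadjusted p under 0.05 in edgeR. In FBSA against Control, elovl6_1 had an unadjusted p of 0.0371 in edgeR and ranked 5053 of 23874 genes by p. At least 5053 of all genes tested were therefore under 0.05 there. Nothing is read from the 2 regulators, nor from the count of peroxisomal genes below. The gene insig1, whose product holds back SREBP processing, was not among the 16, because its entry did not pass the low-count filter and 99.1% of its reads sat in a suffixed entry. With the suffixed entry added, insig1 was lower in FBSA by a log2 of -2.87 (adjusted p 0.0011 in edgeR); without the low-count filter its own entry had a log2 of 1.19 (adjusted p 0.80 in edgeR). Of 11 genes of peroxisomal oxidation edgeR called 0, with 4 at an unadjusted p under 0.05, and DESeq2 and edgeR with a replicate block each called 1, acaa1, as lower (adjusted p 0.0459 and 0.0414). The other 11 alternatives gave acaa1 adjusted p-values of 0.069 to 0.23. The transcripts of srebf1 had 8.41, 12.1 and 5.86 CPM in FBSA and 7.59, 7.65 and 7.03 CPM in Control. The genes insig1, acaa1 and srebf1 are named outside the rule that named genes by the size of their difference.

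**Figure D4:**
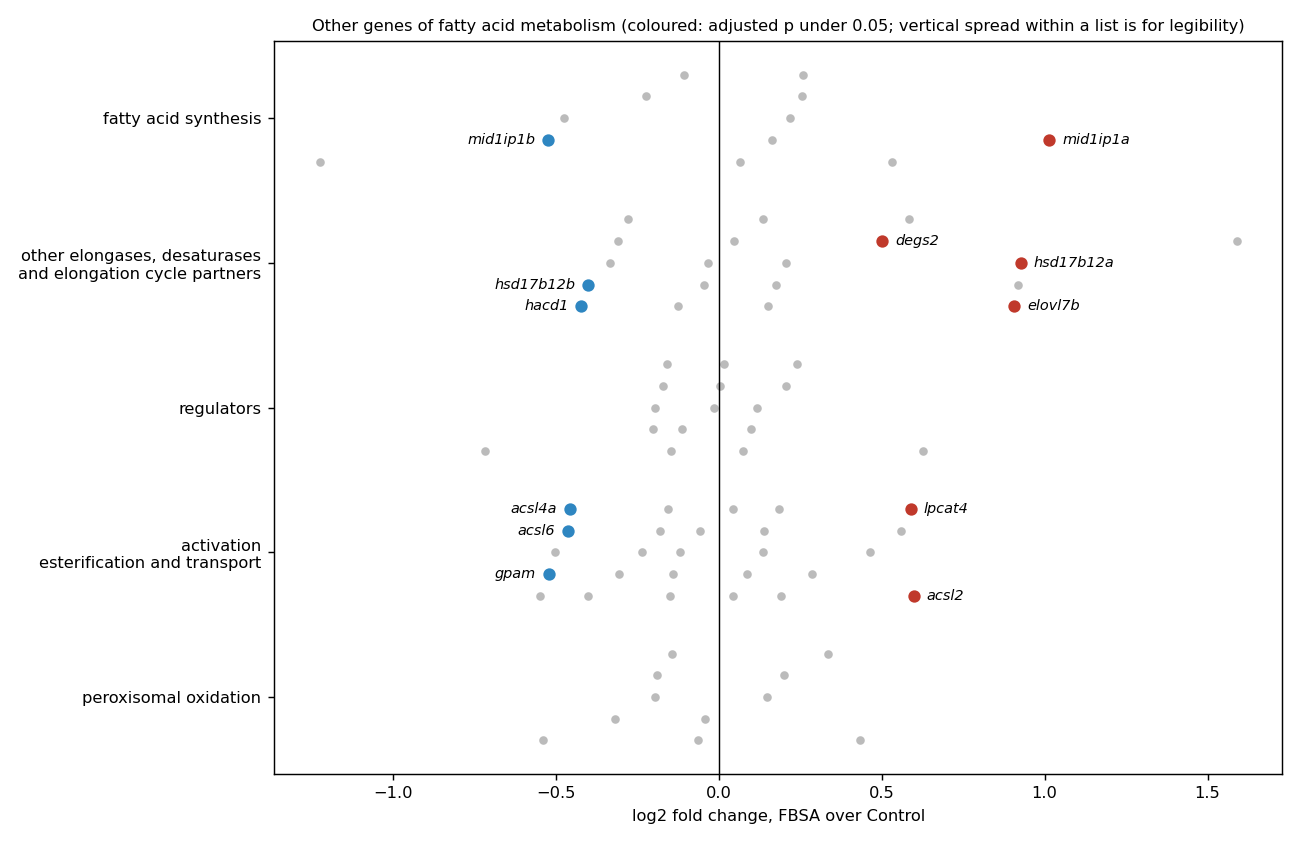
Log2 fold change of FBSA over Control (horizontal axis) of the 84 other genes tested from 5 lists of fatty acid metabolism, 1 point a gene; coloured and named points passed the test, red higher and blue lower. Points of the 5 lists lie on both sides of 0, and the 6 that rose reach 1.01 while the 6 that fell reach -0.52.

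Markers of cell types were summed to show what else differed between these pools. Their lists too were drawn up with earlier results of these data known, so the values are a description. In FBSA against Control, 5.28% of all genes tested were called higher and 4.25% lower. Summed neuron markers were 2438 to 2719 CPM in FBSA and 2935 to 2986 CPM in Control, and 9 of 12 fell in edgeR. Skeletal muscle markers summed to 22131 to 25366 CPM in FBSA and 26938 to 27708 CPM in Control, with 3 of 11 lower and 1 higher. Photoreceptor markers summed to 91.7 to 123 CPM in FBSA and 125 to 147 CPM in Control, with 0 of 8 tested called in edgeR. Hatching gland markers summed to 1486 to 1776 CPM in FBSA and 853 to 941 CPM in Control, with 4 of 5 tested higher. Markers of the yolk syncytial layer, which exports yolk lipid, summed to 17346 to 17923 CPM in FBSA and 15235 to 16340 CPM in Control, with 1 of 11 lower. Hepatocyte markers summed to 2168 to 2451 CPM in FBSA and 1907 to 1997 CPM in Control, with 2 of 10 higher. The sums of radial glia and epidermis markers overlapped between FBSA and Control, with 1 of 8 radial glia markers higher and 1 lower, and 1 of 9 epidermis markers higher. In the acids against Control edgeR called no marker, as it called no gene. The part of these marker differences in the levels of the 10 genes was not tested.

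Over the 15 libraries, the gene whose log2 CPM was most like that of fads2 was sqlea, a squalene epoxidase of sterol synthesis, with a Pearson correlation of 0.92 among 13271 genes. The next were suz12a (0.87), phkg2 (0.86), smg9 (0.86) and dusp11 (0.85). For elovl2 they were cactin (0.88), hspa4a (0.88), sf3b3 (0.87), kif5ba (0.87) and trim35-12 (0.865). These values describe libraries that fall into 5 groups, so a difference between groups that 2 genes share raises them. The correlation of fads2 with elovl2 was 0.83 over the 15 libraries and 0.30 after group means were removed. For elovl1a with elovl1b the values were 0.82 and 0.28.

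The authors' deposited enrichment table for genes changed by FBSA places the process of unsaturated fatty acid biosynthesis at rank 2 of 2447 Gene Ontology terms. It counts 9 changed genes of 13 in that term, with a p of 9.2e-08 and a Q of 0.000113. Of the 9 genes, 6 are members described here, so the term repeats the values above and is not independent of them. The other 3 are elovl6l, elovl7a and elovl7b. By the authors' log2 values, 5 of the 9 were higher in FBSA and 4 lower: elovl1a, elovl1b, elovl6l, elovl7a and elovl7b were higher, and fads2, elovl2, elovl4b and scdb lower. The authors' deposited transcription factor table was also computed on genes changed by FBSA, so it is not independent of the values above. It gives the nuclear form of SREBP1 a ratio of 2.30 of observed to expected targets, 39 against 16.9 (p 4.92e-07), among 234 factors listed. It gives ratios of 2.45 for the SREBP2 precursor (authors' p 0.0001745), 1.76 for PPAR-alpha (0.000549) and 1.75 for LXR-alpha (0.00275). The SREBP1 precursor has a ratio of 2.22 (authors' p 0.00442). HNF4-alpha has a lower ratio than each of these, 278 targets against 222.8. Its authors' p of 2.06e-05 is larger than that of nuclear SREBP1 and smaller than the others given here. Ranks of these factors among the 234 are not given here.

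The gene elovl6l, an elovl6-like elongase that is not among the 10 and was singled out after its values were seen, had 44.3, 53.2 and 43.0 CPM in FBSA, 24.7, 25.1 and 25.5 CPM in PFBS, 29.3, 20.3 and 24.5 CPM in PFPeA, 25.1, 22.2 and 25.5 CPM in 42FTS, and 20.5, 24.5 and 25.5 CPM in Control. The FBSA libraries lay above all 12 others, which overlapped. Its log2 difference of FBSA from Control was 1.00 (SE 0.12).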

How the data were processed

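The authors' deposited count table gave unnormalized whole read counts for each gene entry. Per the submitters' processing notes, the build was GRCz11 and the tools were HISAT2, HTSeq, Bowtie2, RSEM and DESeq2, with no roles stated. Strand use in counting was not stated. In the header 2 PFBS columns share 1 name. They are called PFBS a and PFBS b and carry no replicate number. Category lines were left out of library sizes, and genes took 63.7% to 66.6% of reads. Reads with no unique alignment were 1 such category, with 14.3% to 15.7% of reads. Of the entries, 16469 carry a numbered suffix.

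Per the file headers, the authors' differential expression table gave TPM per sample, and log2 fold changes, p-values and Q values per compound. The authors' enrichment tables gave p-values, Q values and a ratio of observed to expected targets. Another 45 columns (30 per sample, 15 averages) were not used.

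The counts were fitted with edgeR 4.0.16 in R 4.3.3 (TMM, filterByExpr defaults, robust quasi-likelihood F-test, two-sided, group as the only term, all 15 libraries, Benjamini-Hochberg over 23874 genes). Correlations used log2 of CPM, with 0.5 added to each read count before scaling, and genes averaging at least 1 CPM. DESeq2 1.42.0 was an alternative. The code was tested on simulated data. The 10 genes, the pathway and marker lists and the tests were chosen with earlier results of these data known. Pathway genes were named by the largest differences past the test, up to 4 a direction per list. The genes fasn, insig1, acaa1, srebf1 and srebf2 did not pass the main test and are given with values outside this rule. Neighbours in correlation were named by rule for fads2 and elovl2 alone, and those of elovl4b and elovl1b are given outside it. Intervals cover the spread between pools and counting error only.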

Additional observations from a re-analysis of the deposited data

How the results depend on the processing

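Comparisons were refitted with DESeq2's size factors in edgeR, without the low-count filter, with DESeq2 and with only the 2 groups compared. They were also refitted with each library left out, with a replicate block (not for PFBS) and with suffixed entries added to their symbol. Comparisons with Control or 42FTS were refitted without Control 3 and 42FTS 2 as well. Among the 10 genes, no fold change called in the main fit changed sign. Of the 10 genes, the 6 called in FBSA against Control became 3 in the fit of 2 groups, 3 without Control 3 and 42FTS 2, and 4 to 6 with 1 library left out. The genes fads2, elovl2 and elovl1b were called in each of these, which the choice of genes favours, while elovl4b also lost its call without the low-count filter. Against PFBS, 2 were called in the fit of 2 groups and 2 to 4 with 1 library left out. Against PFPeA, DESeq2 called 6, the fit of 2 groups 0, and fits with 1 library left out 1 to 4. Against 42FTS, the fit of 2 groups called 0, the replicate block 3, the fit without Control 3 and 42FTS 2 3, and fits with 1 library left out 1 to 4. In PFPeA against Control, DESeq2 called 1 of the 10 genes and 1 pathway gene. Of the pathway genes in FBSA against Control, the main fit called 6 higher and 6 lower. DESeq2 called 9 higher and 8 lower, and the fit of 2 groups 4 higher and 4 lower. Fits with 1 library left out called 4 to 7 higher and 5 to 6 lower.

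Of all genes, 2274 were called in FBSA against Control, 855 in the fit of 2 groups, 1228 without Control 3 and 42FTS 2, and 1020 (without FBSA 2) to 2108 with 1 library left out; counts were 1296 to 1430 without a Control library. In the acids against Control, where 0 were called, DESeq2 called 6 in PFBS, 15 in PFPeA and 14 in 42FTS, the fit of 2 groups 1 in PFBS and 4 in 42FTS, the fit with no low-count filter 1 in PFPeA, and the fit without Control 3 and 42FTS 2 called 1 in 42FTS. With 1 library left out these were 0 to 1 in PFBS, 0 to 2 in PFPeA and 0 to 2 in 42FTS. Causes of these changes were not tested. Library numbers gave no clear pairing of the samples. Deviations from group means correlated at -0.059 to 0.134 between same-numbered libraries and at -0.165 to 0.149 between differently numbered ones. Pairs of libraries numbered 3 were all positive, at 0.0086 to 0.134, and a weak shared batch was not tested. For the block, 2 PFBS columns carry no number.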

Other observations

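The elongase gene elovl7a differed between the authors' table and the count table, and the tool behind each was not stated. The authors' deposited table gave elovl7a a log2 of 0.36 in FBSA over Control (Q 0.00607) and TPM of 34.7 ± 0.454 in FBSA and 28.1 ± 1.28 in Control (SD, n = 3 each). In the count table the entry elovl7a had 6.67, 5.92 and 5.30 CPM in FBSA and 12.3, 5.33 and 4.01 CPM in Control, a log2 difference of -0.28 (SE 0.30, adjusted p 0.635 in edgeR). Entries with a numbered suffix held 69.8% of the reads of this symbol. The entry elovl7a_1 had 19.7, 15.4 and 15.3 CPM in FBSA and 10.6, 11.6 and 15.9 CPM in Control, a log2 difference of 0.40 (SE 0.22, adjusted p 0.293 in edgeR). With suffixed entries added to their symbol, the difference of elovl7a was 0.19 (adjusted p 0.531 in edgeR), and without Control 1, which was high for elovl7a and low for elovl7a_1, it was 0.35 for elovl7a alone (adjusted p 0.352 in edgeR). These entries were singled out after their values were seen. None of the 10 genes other than elovl6 had a suffixed entry.

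The genes whose levels ran most closely with elovl4b over the 15 libraries were fbp2, roraa, lmo1, myhb and pgam2. The rule named neighbours for fads2 and elovl2 alone, so those of elovl4b and elovl1b are given outside it. The 5 had Pearson correlations of 0.97 each over libraries that fall into 5 groups. For elovl1b, among 13271 genes, they were cd9b (0.97), reep5 (0.97), the reductase gene hsd17b12a (0.96), cpn1 (0.96) and desma (0.96). Values after group means were removed were not computed for these neighbours.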
